A study of Caenorhabditis elegans with 23 samples.

Results

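The 39 genes described here make, package, release and receive the signals that pass between neurons, or between neurons and muscle, in the nematode Caenorhabditis elegans. They were chosen by name: each gene whose annotated symbol or older name is on the list was taken, all 39 were found on the array among 17118 named genes, and each was read on its brightest probe set over the 23 arrays. By role they divide into 10 genes of synaptic vesicle fusion, 4 of vesicle recycling and transport, 3 calcium channel genes, 4 of dense core vesicles, 6 of acetylcholine, 4 of GABA, 1 of glutamate, 6 of the monoamines and 1 of G protein signalling. Intensity chose the probe set of a gene, and no difference between groups enters the rule.

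At a chemical synapse, vesicles loaded with transmitter are carried to the nerve terminal, docked and primed, and fused with the plasma membrane by SNARE proteins when calcium enters through voltage-gated channels. The membrane is then retrieved and the vesicle rebuilt. Each transmitter needs its own synthetic enzyme and vesicular transporter, and neuropeptides travel in dense core vesicles and are cut and trimmed inside them. In C. elegans acetylcholine excites body muscle, GABA relaxes it, and serotonin, dopamine, tyramine and octopamine set behavioural states such as feeding and egg laying.

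Total RNA of whole worms was hybridised to 23 single-sample arrays. The wild type (WT) was N2, and the mutant was glp-1(e2141ts), whose GLP-1 protein, a Notch receptor required by germline stem cells, fails in warmth, and in which few germ cells form per the labels. Both genotypes received the empty vector (EV) or RNAi against ash-2, part of the enzyme complex placing methyl groups on lysine 4 of histone H3, and were collected at the L3 larval stage or on day 8 of life. The design asks what loss of the germline and of ash-2 changes at each age. Genotype, RNAi and age combine into 8 groups, 4 at L3 and 4 on day 8. Each has 3 arrays, except day 8 WT EV with 2, from which the submitters excluded number 3 for quality. All groups share growth at 20 degrees per the labels, and whether glp-1 worms were moved to a restrictive temperature is not stated. Whether replicate arrays stem from separate cultures is not labelled, so p-values measure only the spread between these arrays, which may be technical.

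Values are log2 intensities, so a difference of 1 is a doubling, and they compare 1 probe set between arrays, never 2 genes with each other. A gene is said to rise or fall where limma's two-sided test gave an adjusted p under 0.05, with Benjamini and Hochberg's adjustment taken over the whole array. Standard errors follow ±. Of the 39 brightest probe sets 20 are shared, that is, can bind several transcripts, and the genes read on them are uncertain: snb-1, snt-1, snn-1, rab-3, aex-3, unc-64, unc-13, unc-10, unc-26, unc-36, egl-21, ida-1, cha-1, unc-17, cho-1, unc-49, eat-4, cat-1, tbh-1 and ric-8. The genes cha-1 and unc-17 also lie at a single locus.

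Across the series, array medians lay between 5.72 and 5.91 at L3 and between 4.89 and 5.01 on day 8. Whether the ages were normalized separately was not tested, and it cannot be told apart from age itself. On 3 shared probe sets of ash-2, the signal rose by between 4.54 and 8.29 under ash-2 RNAi, and on the probe set not shared it fell by 1.82 in day 8 WT (adjusted p = 2.35e-04) and did not pass elsewhere. Which part of ash-2 the RNAi clone covers is not given in the sources used here, so neither reading settles the depletion. In glp-1 EV worms all 10 germline genes examined, such as gld-1 and pgl-1, were lower than in WT EV worms at both ages, with medians of -3.49 at L3 and -5.15 on day 8. Of 12 muscle genes, 12 were higher at L3 (median 0.50) and 10 on day 8 (median 2.18). Of 10 pan-neuronal genes, 7 rose and 1 fell at L3 (median 0.48), and 4 rose and 1 fell on day 8 (median 0.42). Over all genes 33.9% rose and 23.2% fell at L3, and 28.9% rose and 26.5% fell on day 8. The mean level of the pan-neuronal genes was also read. Their mean level lay between 6.36 and 6.37 over the arrays of L3 WT EV, 6.78 and 6.81 in L3 glp-1 EV, 6.0 and 6.03 in day 8 WT EV, and 6.50 and 6.65 in day 8 glp-1 EV. The mean of 7 intestine genes was 11.12 to 11.17 in WT EV and 11.46 to 11.62 in glp-1 EV at L3. On day 8 it was 9.81 to 9.97 and 11.47 to 11.72. For 8 epidermis genes it was 10.40 to 10.54 and 10.91 to 11.18 at L3, and 6.80 to 6.88 and 7.22 to 7.58 on day 8. Oocyte genes were lower in glp-1 EV at both ages, and sperm genes were lower at L3 and higher on day 8. The part of these tissue differences in the results was not tested. In bulk RNA, fewer cells of a type and less RNA per cell cannot be told apart.

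Under EV most synaptic genes were higher in glp-1 than in WT worms at both ages, except where arrays were centred on muscle genes, which turned the median below 0. At L3 28 of the 39 rose and 1 fell, against 33.9% of all genes rising and 23.2% falling, and their median change was 0.48 against 0.11 over all genes. On day 8 20 rose and 3 fell, against a background of 28.9% rising and 26.5% falling, with a median of 0.55 against 0.04. With every array centred on the mean of the 12 muscle genes, 4 members rose and 9 fell at L3, against 5.93% and 62.2% of all genes, and 5 rose and 27 fell on day 8, against 5.87% and 84.6%. Muscle-centred counts of single roles are read against these shares. That centring moved the median of all genes by -0.53 at L3 and by -2.17 on day 8, so the members' median lay above that of all genes by 0.37 at L3 and 0.51 on day 8 either way. The members that still rose relative to the muscle genes were unc-13, ric-4, unc-64 and unc-25 at L3, and ric-4, unc-64, egl-21, bas-1 and unc-25 on day 8.

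Under ash-2 RNAi, on separate arrays, the same contrast was made. At L3 24 members rose and 1 fell (background 28.8% and 22%), and on day 8 20 rose and 3 fell (background 28.7% and 25.1%). With muscle centring 9 rose and 13 fell at L3, against 4.3% and 62.3% of all genes, and 5 rose and 27 fell on day 8, against 7.02% and 82.7%. Over all 4 contrasts of glp-1 with WT, which use separate arrays, 17 members rose in each, against 17% of all genes, and tdc-1 alone fell in each, against 14.8%. The 17 are snt-1, rab-3, aex-3, ric-4, unc-64, unc-18, unc-10, unc-104, egl-19, egl-3, egl-21, ida-1, ace-1, ric-3, unc-25, unc-49 and bas-1. Of these, ace-1 read below the array median on every array. Under ash-2 RNAi at L3 the call of ida-1 was lost without any 1 of 5 arrays, that of aex-3 without any 1 of 2 and that of egl-21 without WT array 3, and on day 8 that of ida-1 without any 1 of 2.

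**Figure D1:**
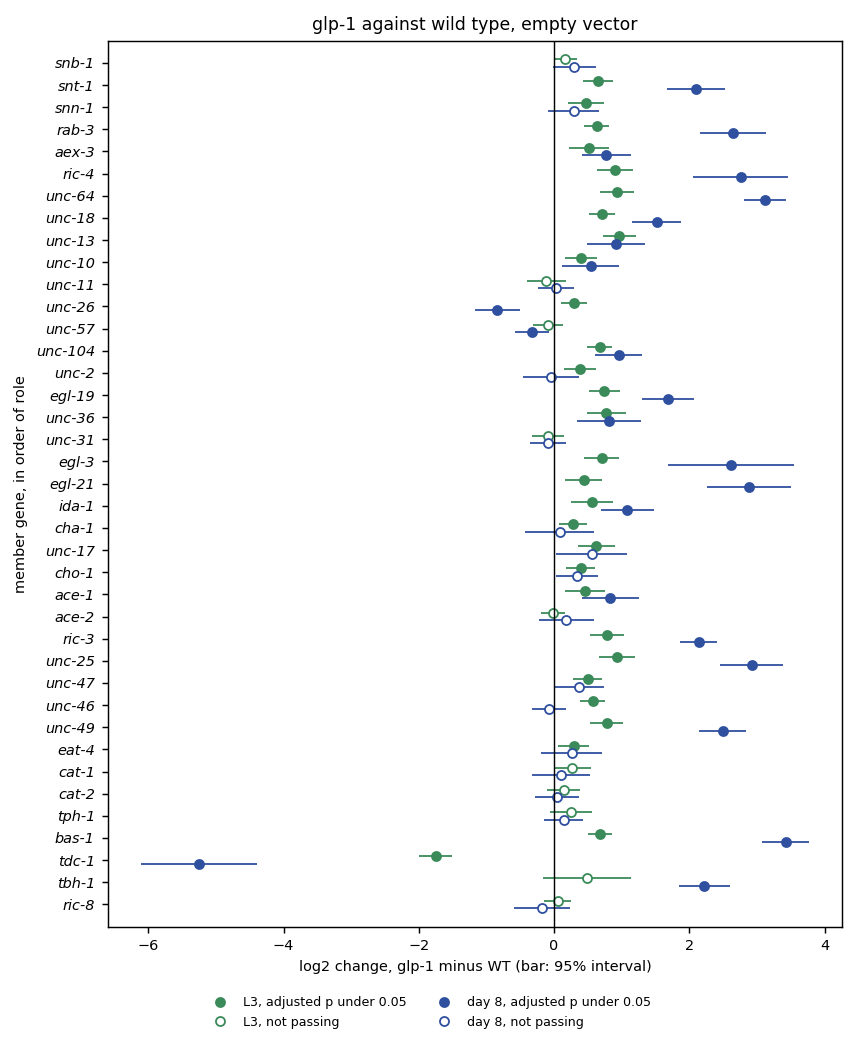
Each point is the log2 change of 1 member gene between glp-1 and WT worms on EV, at L3 (green, 3 against 3 arrays) and on day 8 (blue, 3 against 2 arrays), with its 95% interval; filled points passed at adjusted p under 0.05. At L3 the passing rises lie between 0.28 and 0.97 and on day 8 they reach 3.43, tdc-1 lies at -1.75 and -5.25, and relative to the muscle genes most members lie below 0 on day 8 (5 rose and 27 fell).

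The share of calls was also read by signal strength. The 23 members brighter than the median probe set included 16 that rose and 3 that fell on day 8 under EV. Of all genes above the same cut 41.3% rose and 41.4% fell. Of the 16 dimmer members 4 rose and 0 fell, against 16.1% and 11.1% of all genes below that cut. At L3 the brighter members gave 17 rises and 1 fall (background of bright genes 45.8% and 33.9%), and the dimmer ones gave 11 rises and 0 falls (background of dim genes 21.6% and 12.1%). After muscle centring these directions turn for many members, as given above. Of the members that rose on day 8 under EV, some read below the array median on both WT EV arrays. They are snt-1, aex-3, unc-13, unc-10, unc-36, ace-1, ric-3 and unc-25. Their WT level may be background, so their day 8 changes and folds are those of the signals. At L3 under EV, ace-1, unc-2, eat-4, cha-1, aex-3, cho-1 and unc-10 read below the array medians in both genotypes. There unc-46 and unc-47 did so on all WT arrays. These levels may be background too, so the L3 rises of these genes are also those of the signals. For such dim members a difference that did not pass may have been missed.

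Vesicle fusion is carried by 10 of the members. At L3 9 of the 10 rose in glp-1 EV worms and on day 8 8 of the 10, while relative to the muscle genes 3 rose and 1 fell at L3 and 2 rose and 6 fell on day 8. The exception at both ages was snb-1, which encodes synaptobrevin, the SNARE of the vesicle: it differed by 0.17 ± 0.08 at L3 and 0.30 ± 0.14 on day 8 without passing, and rose by 0.49 ± 0.13 on day 8 under ash-2 RNAi (adjusted p = 0.00627).

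The plasma membrane SNARE gene unc-64, which encodes syntaxin, read 7.88, 8.01 and 8.15 in L3 WT EV and 8.99, 8.82 and 9.03 in L3 glp-1 EV. Its day 8 values were 6.69 and 7.06 in WT EV and 9.99, 10.12 and 9.86 in glp-1 EV. All glp-1 arrays lay above all WT arrays of the same age. The rise was 0.93 ± 0.12 at L3 (1.91-fold, adjusted p = 1.47e-05) and 3.12 ± 0.14 on day 8 (8.68-fold, adjusted p = 5.14e-09).

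Its partner ric-4, which encodes SNAP-25, read 8.33, 8.34 and 8.44 in L3 WT EV and 8.94, 9.45 and 9.44 in L3 glp-1 EV. On day 8 the values were 5.54 and 5.68 in WT EV and 9.03, 7.90 and 8.20 in glp-1 EV. The groups were apart at both ages, with array 1 the highest of the day 8 glp-1 EV arrays. The rise was 0.91 ± 0.12 at L3 and 2.76 ± 0.32 on day 8 (6.78-fold, adjusted p = 1.37e-05).

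The vesicle GTPase gene rab-3 read 7.93, 7.93 and 8.12 in L3 WT EV and 8.62, 8.66 and 8.62 in L3 glp-1 EV. Its day 8 values were 6.42 and 5.99 in WT EV against 9.13, 8.65 and 8.79 in glp-1 EV. All glp-1 arrays lay above all WT arrays at each age, by more on day 8. It rose in glp-1 by 0.63 ± 0.09 at L3 and 2.65 ± 0.22 on day 8 (6.26-fold, adjusted p = 8.03e-07). Relative to the muscle genes neither of these rab-3 values passed as a rise.

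Synaptotagmin, the calcium sensor of release, is encoded by snt-1, which read 5.71, 6.08 and 5.77 in L3 WT EV and 6.53, 6.47 and 6.52 in L3 glp-1 EV. On day 8 it read 4.87 and 4.79 in WT EV and 6.99, 6.59 and 7.22 in glp-1 EV. The groups did not overlap at either age. It rose by 0.65 ± 0.10 at L3 and by 2.10 ± 0.19 on day 8 (4.30-fold, adjusted p = 1.88e-06), and relative to the muscle genes it did not rise.

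The other fusion genes had smaller changes on day 8. Munc18, the syntaxin-binding protein, is encoded by unc-18, which rose by 0.71 ± 0.09 at L3 and 1.52 ± 0.16 on day 8. The priming factor Munc13, encoded by unc-13, rose by 0.97 ± 0.11 and 0.92 ± 0.19, the first of which was the largest L3 rise of any member under EV. For aex-3, the exchange factor that activates the RAB-3 GTPase, the rises were 0.51 ± 0.14 and 0.78 ± 0.16. The active zone scaffold gene unc-10 (RIM) rose by 0.40 ± 0.11 at L3 and 0.55 ± 0.19 on day 8, and the day 8 call was lost without either WT EV array or without glp-1 EV array 1. Synapsin, encoded by snn-1, rose by 0.48 ± 0.12 at L3 and differed by 0.29 on day 8 without passing. Of these, only unc-13 at L3 still rose relative to the muscle genes.

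**Figure D2:**
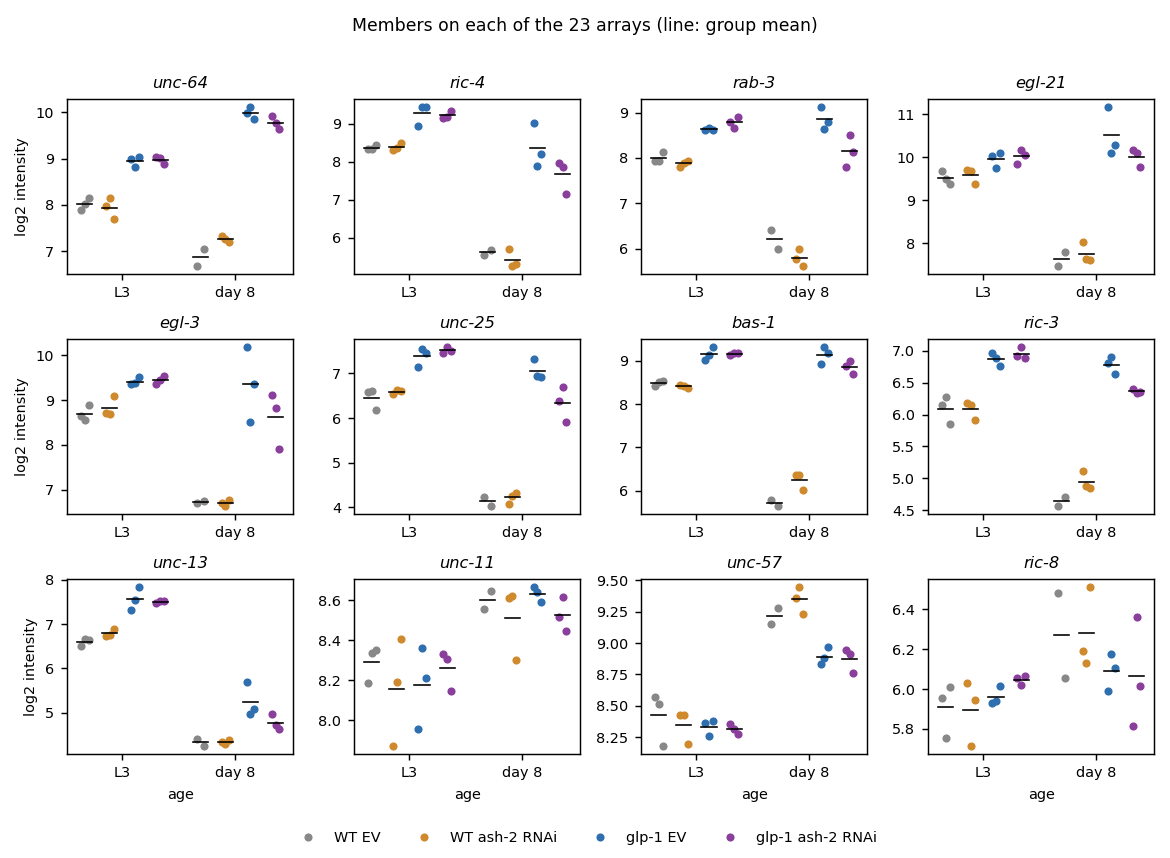
Log2 intensity of 12 members on each of the 23 arrays, grouped by age on the horizontal axis, with a colour for each genotype and RNAi and a line at each group mean; each panel has its own scale. On the deposited scale the day 8 glp-1 EV arrays of unc-64 lie between 9.86 and 10.12 against 6.69 and 7.06 in WT EV, while all arrays of unc-11 lie between 7.87 and 8.67.

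Recycling and transport genes gave mixed values. At L3 2 of 4 rose, and on day 8 1 rose and 2 fell, while relative to the muscle genes 2 fell at L3 and all 4 fell on day 8. Synaptojanin, the lipid phosphatase that strips clathrin-coated vesicles, is encoded by unc-26, which read 6.93, 6.86 and 6.85 in L3 WT EV and 7.04, 7.19 and 7.32 in L3 glp-1 EV. On day 8 it read 7.52 and 7.15 in WT EV and 6.45, 6.45 and 6.57 in glp-1 EV. The glp-1 arrays were thus above WT at L3 and below WT on day 8. It rose by 0.30 ± 0.09 at L3 (adjusted p = 0.0105), a value that turned negative relative to the muscle genes, and fell by 0.84 on day 8 (SE 0.15, adjusted p = 4.84e-04).

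Endophilin, the partner of synaptojanin, is encoded by unc-57, which read 9.15 and 9.28 in day 8 WT EV and 8.83, 8.88 and 8.97 in day 8 glp-1 EV. It fell by 0.32 on day 8 (SE 0.11, adjusted p = 0.0320), a call lost without 4 of the 5 arrays, and fell by 0.48 under ash-2 RNAi (adjusted p = 0.00173). The clathrin adaptor gene unc-11 (AP180) differed by -0.11 at L3 and 0.03 on day 8, with a 95% interval on day 8 from -0.24 to 0.30. The kinesin gene unc-104, whose product carries vesicle precursors along axons, rose by 0.68 ± 0.09 at L3 and 0.96 ± 0.16 on day 8, and relative to the muscle genes it fell on day 8.

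Of the 3 calcium channel genes, all rose at L3 and 2 on day 8, and relative to the muscle genes none passed at L3 and 2 fell on day 8. The L-type channel gene egl-19, used in muscle and neurons, rose by 0.74 ± 0.10 at L3 and 1.68 ± 0.17 on day 8 (3.21-fold, adjusted p = 4.86e-06). For unc-36, an accessory channel subunit, the rises were 0.77 ± 0.13 and 0.81 ± 0.21, the second of which was lost without WT EV array 1. The presynaptic channel gene unc-2 rose by 0.38 ± 0.11 at L3 and differed by -0.05 on day 8, with a 95% interval from -0.46 to 0.36.

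Of the 4 dense core vesicle genes 3 rose at each age, while relative to the muscle genes 1 fell at L3 and 1 rose and 2 fell on day 8. The neuropeptide carboxypeptidase gene egl-21 read 9.69, 9.50 and 9.39 in L3 WT EV and 10.02, 9.76 and 10.11 in L3 glp-1 EV. The day 8 values were 7.47 and 7.79 in WT EV and 11.17, 10.09 and 10.27 in glp-1 EV. The groups were apart at both ages, narrowly at L3. It rose by 0.44 ± 0.13 at L3 (1.36-fold) and 2.88 ± 0.28 on day 8 (7.37-fold, adjusted p = 2.96e-06).

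The proprotein convertase gene egl-3, whose product cuts peptide precursors before egl-21 acts, read 6.71 and 6.75 in day 8 WT EV and 10.19, 8.50 and 9.37 in day 8 glp-1 EV. The glp-1 arrays were widely spread but all lay above WT. The rise was 2.62 ± 0.42 on day 8 (6.15-fold, adjusted p = 2.10e-04) and 0.71 ± 0.12 at L3, and neither held relative to the muscle genes. The IA-2 gene ida-1 rose by 0.56 ± 0.14 and 1.08 ± 0.18, and it fell relative to the muscle genes on day 8. The gene unc-31, which encodes CAPS, needed for dense core vesicle release, differed by -0.09 at both ages without passing. Its levels lay between 3.82 and 4.50 on all 23 arrays, below the array medians. They may be background, so a difference could be missed.

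Of the 6 cholinergic genes 5 rose at L3 and 2 on day 8, while relative to the muscle genes 2 fell at L3 and 5 fell on day 8. Choline acetyltransferase (cha-1), which makes acetylcholine, rose by 0.28 ± 0.09 at L3, a call lost without any 1 of 3 arrays, and differed by 0.08 on day 8. The vesicular transporter gene unc-17 rose by 0.63 ± 0.13 at L3 and differed by 0.55 on day 8 (95% interval 0.04 to 1.07, adjusted p = 0.068), where array 1 of glp-1 EV read 5.73 and the other two 4.67 and 4.96 against 4.60 and 4.54 in WT. The choline transporter gene cho-1 rose by 0.40 ± 0.10 at L3 and differed by 0.34 on day 8 (adjusted p = 0.059).

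Acetylcholinesterases break acetylcholine down. The gene ace-1 rose by 0.45 ± 0.14 at L3, a call lost without any 1 of 2 arrays, and by 0.83 ± 0.19 on day 8. For ace-2 the differences were -0.01 and 0.18, without passing. Both genes read below the array median on every array, so their levels may be background. The receptor chaperone gene ric-3 read 6.16, 6.28 and 5.85 in L3 WT EV, 6.96, 6.89 and 6.76 in L3 glp-1 EV, 4.57 and 4.71 in day 8 WT EV, and 6.81, 6.90 and 6.63 in day 8 glp-1 EV. The groups did not overlap at either age, and the gap was wider on day 8. It rose by 0.78 ± 0.12 at L3 and 2.14 ± 0.12 on day 8 (4.41-fold, adjusted p = 3.77e-08), and it did not rise relative to the muscle genes.

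All 4 GABA genes rose at L3 and 2 on day 8, while relative to the muscle genes 1 rose at L3 and 1 rose and 2 fell on day 8. Glutamate decarboxylase (unc-25), which makes GABA, read 6.58, 6.59 and 6.18 in L3 WT EV and 7.14, 7.54 and 7.46 in L3 glp-1 EV. Day 8 values were 4.24 and 4.04 in WT EV and 7.32, 6.95 and 6.91 in glp-1 EV. The groups were far apart on day 8. It rose by 0.93 ± 0.12 at L3 and 2.92 ± 0.21 on day 8 (7.58-fold, adjusted p = 2.20e-07). The day 8 WT EV values lie below the medians of those arrays, 4.89 and 4.93. The fold is thus that of the signals, and the WT level may be background. The GABA-A receptor gene of body muscle, unc-49, rose by 0.78 ± 0.11 and 2.49 ± 0.16 (5.63-fold), without a rise relative to the muscle genes.

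The vesicular GABA transporter gene unc-47 rose by 0.50 ± 0.10 at L3 and differed by 0.36 on day 8 (adjusted p = 0.089). Its sorting factor gene unc-46 rose by 0.57 ± 0.09 at L3 and differed by -0.07 on day 8. The vesicular glutamate transporter gene eat-4 rose by 0.29 ± 0.11 at L3, a call lost without any 1 of 3 arrays, and differed by 0.26 on day 8. After muscle centring unc-47 at L3 and eat-4 at L3 turned negative, and eat-4 fell on day 8.

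Monoamine genes held both the largest rise and the largest fall between genotypes on day 8 on the deposited scale. At L3 1 of 6 rose and 1 fell, and on day 8 2 rose and 1 fell, while relative to the muscle genes 2 fell at L3 and 1 rose and 4 fell on day 8. The aromatic amino acid decarboxylase gene bas-1, which serves dopamine and serotonin synthesis, read 8.42, 8.50 and 8.52 in L3 WT EV and 9.01, 9.15 and 9.32 in L3 glp-1 EV. By day 8 it read 5.78 and 5.65 in WT EV and 8.93, 9.32 and 9.18 in glp-1 EV. The groups were apart at both ages, and most on day 8. It rose by 0.68 ± 0.08 at L3 and 3.43 ± 0.16 on day 8 (10.74-fold, adjusted p = 5.98e-09), the largest rise of any member in these 4 contrasts on the deposited scale.

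Genes of the first steps to dopamine and serotonin did not pass under EV. On every EV array cat-2, tph-1 and cat-1 read below the array median. Their levels may be background, so a difference could be missed. Tyrosine hydroxylase (cat-2), the first step to dopamine, differed by 0.15 at L3 and 0.04 on day 8. Tryptophan hydroxylase (tph-1), the first step to serotonin, differed by 0.25 and 0.14. The vesicular monoamine transporter gene cat-1 differed by 0.27 and 0.11, and rose by 0.46 ± 0.17 on day 8 under ash-2 RNAi (adjusted p = 0.0460), a call lost without any 1 of 5 arrays.

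Tyramine and octopamine are made from tyrosine by consecutive enzymes, and on day 8 the gene of the first step fell in glp-1 while that of the second rose, a rise that did not pass relative to the muscle genes. Tyrosine decarboxylase (tdc-1), which makes tyramine, read 7.28, 7.39 and 7.42 in L3 WT EV and 5.69, 5.51 and 5.65 in L3 glp-1 EV. On day 8 it read 10.21 and 8.99 in WT EV and 4.61, 4.22 and 4.21 in glp-1 EV. The glp-1 arrays lay below the WT arrays at both ages, and the 2 WT arrays of day 8 lay apart from each other. It fell by 1.75 at L3 (SE 0.11, 3.36-fold, adjusted p = 4.63e-08) and by 5.25 on day 8 (SE 0.39, 38.1-fold, adjusted p = 2.84e-07). Under ash-2 RNAi the falls were by 1.21 at L3 and by 4.66 on day 8. Relative to the muscle genes it fell too, in each of the 4 contrasts. The day 8 glp-1 EV values lie below the array medians and the deposited values carry no detection call, so the fold is that of the signals and the level in glp-1 may be background.

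A second, shared probe set of tdc-1 went the same way, with a mean of 4.41 in L3 WT EV and 3.77 in L3 glp-1 EV, and of 6.41 in day 8 WT EV and 3.29 in day 8 glp-1 EV. Another, dim probe set had means of 3.82 in L3 WT EV and 4.20 in L3 glp-1 EV, and rose at L3 by 0.38 (adjusted p = 0.00486). In C. elegans tdc-1 is known from a few neurons, the uv1 cells near the vulva and the sheath cells of the gonad.

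Tyramine beta-hydroxylase (tbh-1), which turns tyramine into octopamine, is likewise known from neurons and gonadal sheath cells. It read 8.11, 8.19 and 8.00 in L3 WT EV and 9.15, 9.01 and 7.59 in L3 glp-1 EV. On day 8 it read 10.44 and 10.09 in WT EV and 12.29, 12.45 and 12.73 in glp-1 EV. The L3 groups overlapped because array 3 of glp-1 EV was low, and the day 8 groups were apart. It differed by 0.48 ± 0.30 at L3 (adjusted p = 0.195), by 0.98 without array 3 of glp-1 EV (adjusted p = 1.04e-04), and rose by 2.22 ± 0.17 on day 8 (4.67-fold, adjusted p = 3.83e-07). Under ash-2 RNAi it rose by 1.57 ± 0.30 at L3 and 1.92 ± 0.15 on day 8. In L3 WT its mean was 6.81 under ash-2 RNAi and 8.10 under EV, and in L3 glp-1 8.38 and 8.58. The wider L3 difference under RNAi thus goes with a lower WT level, not a higher glp-1 level. Relative to the muscle genes only the L3 rise under ash-2 RNAi passed, at 1.09.

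**Figure D3:**
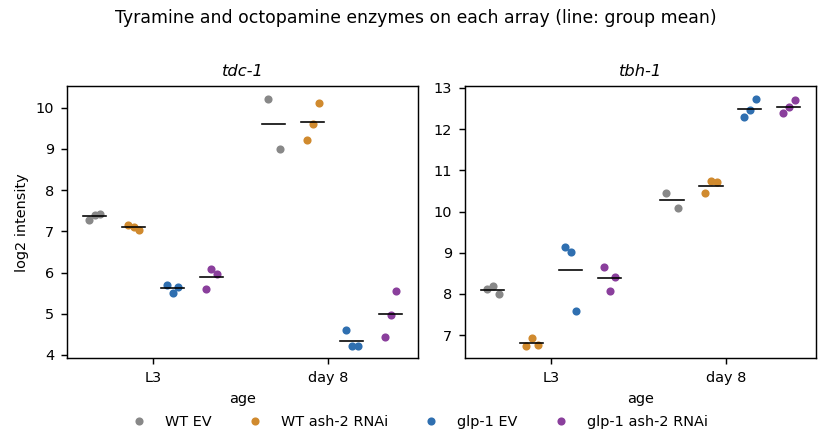
Log2 intensity of tdc-1 (left) and tbh-1 (right) on each array, by age, genotype and RNAi, with a line at the group mean and a separate scale per gene. On tdc-1 the glp-1 arrays lie between 4.21 and 6.10 and the WT arrays between 7.03 and 10.21, and on tbh-1 the 6 day 8 glp-1 arrays lie between 12.29 and 12.73, above every other array.

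The last member, ric-8, encodes an exchange factor for G protein alpha subunits that acts in synaptic signalling and is also needed in early embryos. It differed by 0.05 at L3 and -0.18 on day 8 without passing, and relative to the muscle genes it fell at both ages.

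Age was compared under EV after all 23 arrays were quantile normalized together, since the deposited ages differ in their medians. In WT 18 of the 39 fell from L3 to day 8 and 9 rose, against 27.6% of all genes falling and 34.4% rising, with a median of -0.32 against 0.08. In glp-1 12 fell and 11 rose (background 29.1% and 31.1%), with a median of 0.10 against 0.03. These directions depend on the scale. Centred on array medians, the members' median was -0.03 in WT and 0.27 in glp-1 (0.69 and 0.42 over all genes), and on the deposited values -1.0 and -0.52 (-0.28 and -0.37 over all genes). Muscle centring moved the median of all genes by 3.44 in WT and 1.77 in glp-1, to 3.52 and 1.80, above the members' 2.80 and 1.65. After it 95.5% of all genes rose and 2.04% fell in WT, and 89.7% and 4.35% in glp-1, so the rise of all 39 members in WT and of 38 in glp-1 says nothing particular to them. The 12 muscle genes themselves fell with age in both genotypes, by a median of 3.70 in WT and 1.58 in glp-1, and their part in the result was not tested.

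On that common scale the falls in WT were largest for bas-1 at -2.21 ± 0.12, ric-4 at -2.16 ± 0.23, unc-49 at -2.0 ± 0.15 and egl-21 at -1.81 ± 0.23. The corresponding values in glp-1 were -0.67 ± 0.20 for ric-4, a call lost without day 8 glp-1 EV array 2, -0.70 ± 0.13 for unc-49 and a rise of 0.75 ± 0.21 for egl-21, and bas-1 differed by 0.12 ± 0.10 without passing. In WT tdc-1 rose by 2.64 ± 0.35 and tbh-1 by 2.52 ± 0.35. In glp-1 tbh-1 rose by 4.37 ± 0.31 (20.6-fold, adjusted p = 1.64e-10), the largest change with age among the members, and tdc-1 differed by -0.61 without passing. The recycling genes unc-26 and unc-57 rose with age in WT by 0.97 ± 0.12 and 0.88 ± 0.12, and ric-8 by 1.15 ± 0.13. The falls named here are relative to all genes and do not hold under muscle centring, which raises nearly every gene. With age in WT, 25 of the 33 other, dimmer probe sets of passing members went the same way. Of these 14 passed, and 1 probe set passed the opposite way. In glp-1 20 of 27 went the same way, and 13 passed. For glp-1 against WT under EV 29 of 30 did so at L3 and 21 of 22 on day 8.

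Whether the genotype difference itself changed with age was tested as the glp-1 minus WT difference on day 8 less that at L3. It passed for 16 members, 13 with a larger value on day 8 and 3 with a smaller one, against 25.3% and 28.2% of all genes, and the members' median was 0.06 against -0.05. Muscle centring moved the median of all genes by -1.65, to -1.70 against the members' -1.49, and left 2 members with a larger value (egl-21 and bas-1) and 28 with a smaller one, against 5.29% and 80.5% of all genes. All 13 larger values came from the 23 brighter members, where the background is 33.8% larger and 40.1% smaller, and that of dim genes is 16.6% and 16%.

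By size the differences were 2.57 ± 0.31 for egl-21, 2.33 ± 0.16 for bas-1, 1.93 ± 0.19 for unc-64, 1.84 ± 0.47 for tbh-1, 1.78 ± 0.41 for egl-3, 1.71 ± 0.24 for unc-25 and 1.66 ± 0.23 for rab-3. Those of ric-4, unc-49, snt-1, ric-3, unc-18 and egl-19 lay between 0.51 and 1.49, and that of egl-19 was lost without any 1 of 5 arrays. For unc-25, snt-1 and ric-3 the deposited day 8 WT EV values lie below the array medians and may be background. Values below 0 were found for tdc-1 at -3.25 ± 0.47, unc-26 at -1.07 ± 0.16 and unc-46 at -0.70 ± 0.14. On day 8 unc-46 read 4.43 and 4.47 in WT EV and 4.32 to 4.50 in glp-1 EV, below the array medians. Its level in both groups may be background, as may that of tdc-1 in day 8 glp-1 EV. For unc-13 the difference was -0.29 ± 0.23 and did not pass.

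Treatment with ash-2 RNAi was compared with EV within each genotype and age. The arrays do not settle how far ash-2 was depleted in any of these groups. In L3 WT no member passed in limma's test, where 0.181% of all genes rose and 0.129% fell, and 1543 of the probe sets had an unadjusted p under 0.05. In L3 glp-1 none passed either (background 0.537% and 0.339%, 2826 probe sets at an unadjusted p under 0.05), nor in day 8 WT (background 0.613% and 0.905%, 1817 probe sets). The members' medians were 0.02, 0.01 and 0.03 in these 3 comparisons.

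The widest difference of the 3 was that of tbh-1 in L3 WT, which read 8.11, 8.19 and 8.00 under EV and 6.74, 6.94 and 6.76 under ash-2 RNAi. The groups lay well apart, with little spread in either. The difference was -1.29 (95% interval -1.94 to -0.64, adjusted p = 0.13) in the fit of all 12 L3 arrays, where the spread of tbh-1 includes that of L3 glp-1 EV. In a fit of only the 6 L3 WT arrays it fell by 1.29 with an adjusted p of 1.80e-04. With the replicate number as a block, which pairs these arrays, the adjusted p was 2.09e-05, in a fit added after the data were seen. In the planned block fit of all 12 L3 arrays it was 0.0861. Over all alternatives the adjusted p of tbh-1 ranged from 2.09e-05, in the added fit, to 0.452. In L3 glp-1 the difference was -0.21 and in day 8 WT 0.36, neither passing. The difference between genotypes at L3 was -1.08 (adjusted p = 0.540).

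In day 8 glp-1 4 members fell under ash-2 RNAi and none rose, against 7.95% of all genes falling and 7.79% rising, with a median of -0.18 against 0.03. By limma 6311 probe sets had an unadjusted p under 0.05. Synaptotagmin (snt-1) read 6.99, 6.59 and 7.22 under EV and 6.20, 5.97 and 5.81 under ash-2 RNAi. The groups did not overlap. It fell by 0.94 (SE 0.17, 1.92-fold, adjusted p = 0.00447) and remained past the threshold under every alternative and without each array in turn.

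Glutamate decarboxylase (unc-25) read 7.32, 6.95 and 6.91 under EV and 6.38, 6.69 and 5.91 under ash-2 RNAi, and fell by 0.73 (SE 0.19, adjusted p = 0.0239). For rab-3 the values were 9.13, 8.65 and 8.79 against 7.81, 8.51 and 8.12, a fall by 0.71 (SE 0.20, adjusted p = 0.0347). For ric-3 they were 6.81, 6.90 and 6.63 against 6.39, 6.33 and 6.36, a fall by 0.42 (SE 0.11, adjusted p = 0.0285). In each of the 3 the EV arrays lay above the ash-2 RNAi arrays. The call was lost without any 1 of 2 arrays for unc-25, of 4 for rab-3 and of 5 for ric-3, among 6, and relative to the muscle genes for all 3. Of the 12 muscle genes 1 fell, with a median of -0.05, and of the 10 pan-neuronal genes 1 fell, with a median of -0.26. Over all genes 7.95% fell. The part of the muscle and pan-neuronal genes in the falls of these members was not tested.

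**Figure D4:**
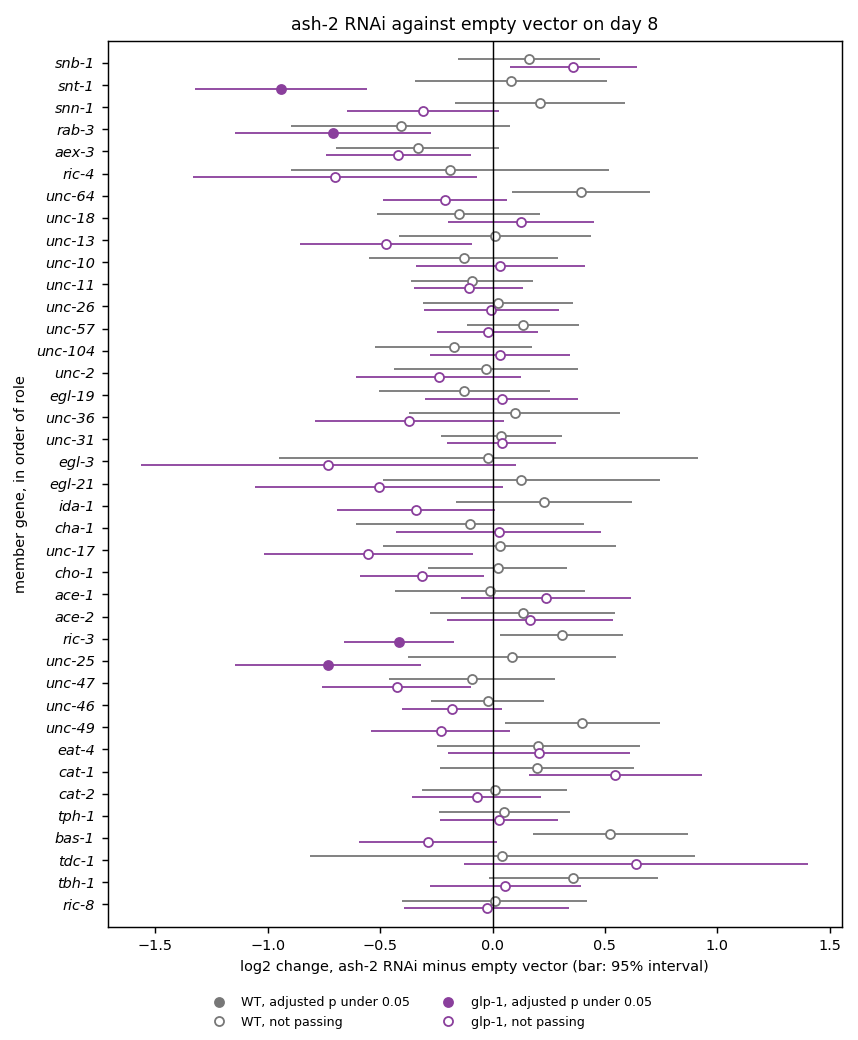
Each point is the log2 change of 1 member under ash-2 RNAi against EV on day 8, in WT (grey, 3 against 2 arrays) and glp-1 (purple, 3 against 3 arrays), with its 95% interval; filled points passed at adjusted p under 0.05. No WT point passed, and the 4 filled glp-1 points are snt-1 at -0.94, unc-25 at -0.73, rab-3 at -0.71 and ric-3 at -0.42, of which only snt-1 passed relative to the muscle genes.

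Whether the RNAi effect differed between genotypes was tested as the WT change less the glp-1 change. At L3 no member and no gene passed in limma (background 0%), with 1859 probe sets at an unadjusted p under 0.05. On day 8 ric-3 passed with a difference of 0.72 (95% interval 0.36 to 1.09, adjusted p = 0.0380), against 2.59% of all genes with a larger and 1.78% with a smaller change in WT. That call was lost without 10 of the 11 arrays, one at a time. The differences of snt-1 at 1.03 (adjusted p = 0.0550) and bas-1 at 0.81 (adjusted p = 0.0587) did not pass.

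The receiving side of the synapse and further release genes were read on 107 other genes, 5 of which are also among the 10 pan-neuronal genes. In glp-1 against WT under EV 72 rose and 2 fell at L3 (median 0.38) and 51 rose and 4 fell on day 8 (median 0.40), with medians relative to the muscle genes of -0.15 and -1.77. Over all genes 33.9% rose and 23.2% fell at L3 (median 0.11), and 28.9% rose and 26.5% fell on day 8 (median 0.04). At L3 19 of 29 acetylcholine receptor genes, 14 of 24 GABA and glutamate receptor genes, 12 of 18 monoamine receptor and reuptake genes and 27 of 36 other release genes rose. On day 8 the same counts were 11, 7, 10 and 23.

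Under ash-2 RNAi in day 8 glp-1 13 of the 107 fell and 4 rose, against 7.95% and 7.79% of all genes. The falls included the glutamate-gated chloride channel gene glc-1 at -2.65 ± 0.50 (adjusted p = 0.00487), the serotonin receptor gene ser-4 at -1.65 ± 0.21 (adjusted p = 4.58e-04), the dopamine receptor gene dop-2 at -1.39 ± 0.16 (adjusted p = 2.22e-04) and the glutamate receptor gene glr-4 at -0.96 ± 0.19 (adjusted p = 0.00718). Among the other release genes syd-2 fell, at -0.69 ± 0.13 (adjusted p = 0.00590). The ser-4 probe set is shared. In the other 3 RNAi comparisons none of the 107 passed in limma.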

How the data were processed

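Whole-worm RNA was measured on 23 single-channel arrays. The deposited values are log2 intensities made by the authors with RMA, per the submitters' processing notes, and no further upstream step is given in the sources used here. The table holds 22548 probe sets, of which 20766 name 1 gene, 887 several and 895 none, and 6 values in 5 probe sets are empty. No column of the table was left out as unassigned (0 columns). The gene read for each symbol is its brightest probe set by the mean over 23 arrays, and 25 members have more than 1, for 81 in all.

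The fit of group means used limma (version 3.58.1, R version 4.3.3) with empirical Bayes moderation, two-sided tests and Benjamini and Hochberg adjustment over all probe sets. The 12 L3 and 11 day 8 arrays were fitted apart on the deposited values, and comparisons between ages used all 23 arrays quantile normalized together. The fit was tested on simulated data. All 39 members could be named, and of each other synaptic list at most the 4 genes of smallest p in a comparison. Members and lists were chosen with earlier results of these data known. Alternatives were median centring, quantile normalization or, between ages, the deposited values, centring on muscle genes, leaving out the dimmest 40% of probe sets, trend and robust variance, the replicate number as a block, averaging all probe sets per gene, only the arrays compared, and leaving out each array. Same-numbered L3 WT arrays under EV and ash-2 RNAi deviated together, with correlations of 0.245, 0.142 and 0.487, so their numbers were taken to pair them. A block fit of only the 6 L3 WT arrays was added after the data were seen. In no other comparison with 3 pairs was every correlation over 0.1, though L3 WT EV against L3 glp-1 EV gave 0.199, 0.150 and 0.097. Arrays of different numbers were not correlated for comparison. The pairing is thus an inference from these data, not a fact of the labels. The number of arrays limits the precision.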

Additional observations from a re-analysis of the deposited data

Results flagged for a closer look

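The glp-1 minus WT difference under EV differed between L3 and day 8, by the test of that difference (adjusted p under 0.05), for 16 members. The values above 0, larger on day 8, were 1.17 for snt-1, 1.66 for rab-3, 1.49 for ric-4, 1.93 for unc-64, 0.62 for unc-18, 0.51 for egl-19, 1.78 for egl-3, 2.57 for egl-21, 1.05 for ric-3, 1.71 for unc-25, 1.29 for unc-49, 2.33 for bas-1 and 1.84 for tbh-1. The values below 0 were -1.07 for unc-26, -0.70 for unc-46 and -3.25 for tdc-1. Levels of snt-1, ric-3 and unc-25 in day 8 WT EV, of tdc-1 in day 8 glp-1 EV and of unc-46 in both may be background. With muscle centring, which moved the median of all genes by -1.65, the values of unc-18, egl-19, snt-1 and ric-3 turned below 0.

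The change under ash-2 RNAi on day 8 differed between genotypes for ric-3, by 0.72 (adjusted p = 0.0380), a call lost in the fits named with it in the report.

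For 2 members every array of a group moved one way in one setting and the opposite way in the other, and these differences were not tested. The change of rab-3 under ash-2 RNAi in glp-1 was 0.15 at L3 and -0.71 on day 8. The glp-1 minus WT difference of unc-46 under ash-2 RNAi was 0.19 at L3 and -0.23 on day 8. The day 8 values of unc-46 lie below the array medians.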

How the results depend on the processing

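Without muscle centring, the alternatives other than leaving out arrays gave 23 to 32 rises and 1 fall for glp-1 against WT at L3 EV, 22 to 28 and 1 at L3 ash-2 RNAi, 19 to 21 and 2 to 4 on day 8 EV, and 18 to 22 and 3 to 4 on day 8 ash-2 RNAi. The signal over background of dim members limits these calls, and the filter on dim probe sets kept 30 members at L3, 28 on day 8 and 27 between ages.

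Muscle centring, which moves every gene of an array by the same amount, gave 4 rises and 9 falls at L3 EV, 9 and 13 at L3 ash-2 RNAi, 5 and 27 on day 8 EV and 5 and 27 on day 8 ash-2 RNAi. It gave 39 rises and 0 falls with age in WT, 38 and 0 in glp-1, 2 larger and 28 smaller genotype differences on day 8, 1 fall on day 8 in glp-1 under ash-2 RNAi, and 0 members for the day 8 difference of RNAi effects. Called members that changed sign under it were, at L3 EV, ace-1 -0.080, unc-2 -0.15, snn-1 -0.058, aex-3 -0.021, unc-47 -0.035, cha-1 -0.25, cho-1 -0.14, egl-21 -0.095, unc-10 -0.13, eat-4 -0.24 and unc-26 -0.23. At L3 ash-2 RNAi they were ida-1 -0.064, snn-1 -0.13, aex-3 -0.072, unc-47 -0.12, cho-1 -0.017, egl-21 -0.044 and unc-10 -0.044. On day 8 EV they were ida-1 -1.08, unc-13 -1.25, ace-1 -1.34, unc-18 -0.65, unc-104 -1.21, egl-19 -0.49, unc-36 -1.36, snt-1 -0.065, ric-3 -0.028, aex-3 -1.39 and unc-10 -1.62. On day 8 ash-2 RNAi they were ida-1 -1.16, ace-1 -0.59, unc-104 -0.52, snt-1 -0.60, ric-3 -0.26, aex-3 -0.99, snb-1 -1.18, unc-10 -0.97 and cat-1 -1.22. With age in WT they were ida-1 1.91, unc-13 1.53, unc-17 2.13, unc-49 1.10, egl-3 1.83, ric-4 1.05, unc-18 2.81, rab-3 2.01, unc-104 2.62, egl-19 2.06, unc-36 2.12, unc-64 2.66, ric-3 2.35, unc-47 2.70, egl-21 1.91, eat-4 2.75, bas-1 1.04 and unc-25 1.49. With age in glp-1 they were ida-1 0.80, unc-17 0.42, unc-49 1.18, ric-4 1.26, unc-104 1.27, unc-36 0.52, unc-46 0.82, snn-1 0.97, unc-47 0.93, eat-4 1.09 and cat-1 1.00. For the genotype difference between ages they were unc-18 -0.82, egl-19 -0.70, snt-1 -0.18 and ric-3 -0.27.

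On the deposited values cha-1 changed sign with age in WT (-0.22) and ric-3 in glp-1 (-0.094), and 21 members fell with age in glp-1. Median centring gave 17 rises with age in WT, 20 in glp-1, 5 smaller genotype differences on day 8, and 1 rise under ash-2 RNAi in day 8 glp-1, as trend and robust variance also did. With only the arrays compared, 1 member (tbh-1) fell under ash-2 RNAi in L3 WT, as it did with the replicate block and those 6 arrays, and 1 fell in day 8 glp-1. For the day 8 difference of RNAi effects 2 members passed without the dimmest probe sets, 0 with trend and robust variance and 0 with the replicate block. The replicate block in the fit of 12 arrays changed no call in L3 WT (adjusted p of tbh-1 0.0861). In the other comparisons the numbers were not taken to pair arrays. There the replicate block gave 29 rises against 28 at L3 EV, 20 on day 8 EV, and 3 falls against 4 under ash-2 RNAi in day 8 glp-1. Beyond the muscle centring, the cause of these shifts was not tested.

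Leaving out 1 array at a time gave 0 to 1 rises and 1 to 6 falls under ash-2 RNAi in day 8 glp-1, with 1 fall without EV array 1 or ash-2 RNAi array 3, and 2 without ash-2 RNAi array 1. The ranges of rises and falls were 26 to 28 and 1 at L3 EV, 21 to 23 and 1 at L3 ash-2 RNAi, 19 to 22 and 2 to 3 on day 8 EV, and 18 to 20 and 3 on day 8 ash-2 RNAi. They were 7 to 9 and 15 to 17 with age in WT, 10 to 12 and 9 to 13 with age in glp-1, 12 to 15 and 3 to 6 for the genotype difference between ages (6 without day 8 glp-1 EV array 1), and 0 to 1 for the day 8 difference of RNAi effects. Where 1 day 8 WT EV array remained, it was assumed to vary like the other groups.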
